A study of Mus musculus with 8 samples.

Results

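Glycolytic enzymes were followed in the tips of secondary alveolar septa of the neonatal mouse lung and set against whole lung. The enzymes were named by gene, not by any measured value, as Aldoa, Gapdh, Pgk1, Pgam1, Eno1, Tpi1, Gpi1, Ldha, Hk1 and Pfkl. Earlier results of these data were, however, known when they were chosen. Every probe set of the array table with 1 of these genes as its single annotated symbol was taken, control probe sets left out. This gave 8 probe sets of 7 genes, among 12422 non-control probe sets of 8251 named genes: 2 of Aldoa and 1 each of Hk1, Pfkl, Tpi1, Pgk1, Pgam1 and Ldha. Gapdh was carried only by 2 probe sets that also list copies of it and by control probe sets, and Eno1 and Gpi1 are not named in the annotation used here, so 3 of the 10 genes had no probe set of their own. All 8 probe sets passed the filter on dim values, which kept 7453 in all.

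Tissue came from C57/Bl6 neonates at day 6 after birth. One group, called tips here, was RNA of septal tips cut by laser capture from frozen sections, 10000 of them, taken from many mice. The other, called lung, was RNA of pooled whole lung of the same age, and no allele, treatment or transgene is named for either group. Each group had 2 RNA samples, from experiments 1 and 2 with different litters, and each RNA was read on 2 Affymetrix arrays at different times, so each group had 4 arrays and p-values rest on 2 RNA samples per group. A tip is a mixture of cell types, as whole lung is, and whole lung also holds the tips. The tip samples are described as whole lung in another field of their labels, and groups follow the titles. An amplification step stands in the labels of the tip arrays and of only 1 lung array, while the design text has both RNAs amplified in parallel.

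Glycolysis turns glucose into pyruvate in the cytosol and yields ATP and NADH. Its upper steps, from hexokinase to aldolase and triosephosphate isomerase, spend ATP and make triose phosphates. The lower steps, from glyceraldehyde-3-phosphate dehydrogenase on, recover ATP, and lactate dehydrogenase then reduces pyruvate to lactate. Most of these enzymes are made by nearly every cell, their genes are known targets of the hypoxia-inducible factors, and Gapdh is widely used as a reference transcript.

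The promoters of the 3 enzymes whose difference passed the test are shown first, so that the letters recognised by hypoxia-inducible factors can be seen beside the values. Each run is the 250 bases before the annotated start of transcription, 5′ to 3′ on the coding strand, from RefSeq on build GRCm38.p6. Capitals mark ACGTG and GCGTG, the core letters of the hypoxia response element, on either strand. Pgk1 is at chrX:106186850-106187099 (plus strand), Pgam1 at chr19:41911621-41911870 (plus strand) and Hk1, at the more upstream of its 2 starts, at chr10:62379909-62380158 (minus strand).
Pgk1: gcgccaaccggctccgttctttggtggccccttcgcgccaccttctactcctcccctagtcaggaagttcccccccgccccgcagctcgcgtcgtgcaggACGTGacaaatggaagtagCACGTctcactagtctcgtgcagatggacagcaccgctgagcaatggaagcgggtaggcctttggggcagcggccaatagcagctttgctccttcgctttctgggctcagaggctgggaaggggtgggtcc
Pgam1: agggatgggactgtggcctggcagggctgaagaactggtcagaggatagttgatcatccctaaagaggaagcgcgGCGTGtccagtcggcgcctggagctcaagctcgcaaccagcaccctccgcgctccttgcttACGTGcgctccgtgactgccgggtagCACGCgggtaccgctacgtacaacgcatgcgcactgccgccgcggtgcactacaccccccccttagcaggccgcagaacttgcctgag
Hk1: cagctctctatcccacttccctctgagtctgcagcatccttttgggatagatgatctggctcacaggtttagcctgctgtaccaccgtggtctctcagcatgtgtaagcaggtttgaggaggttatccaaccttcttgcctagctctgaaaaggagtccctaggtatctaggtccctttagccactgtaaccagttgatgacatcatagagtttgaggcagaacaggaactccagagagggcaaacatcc

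In the Pgk1 promoter ACGTG stood 2 times, beginning 150 and 131 bases before the start, and on opposite strands. The Pgam1 promoter held ACGTG 1 time and GCGTG 2 times. The Hk1 window shown held neither, while the window of its other start held GCGTG 3 times. Over the 10 enzymes, all of which had a promoter in the table, 16 windows were searched, and those of one gene can overlap. ACGTG was found in 5 of them, in Aldoa, Ldha, Pgam1 and Pgk1, against 16.6% of all 32851 promoter windows of the same length. GCGTG was found in 8 of them, against 28.2% of all. The windows of starts 2 and 3 overlap in Aldoa and in Eno1, and hold the same sites, which were counted in both windows. Such a match is a description of letters and not evidence of a bound site.

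The enzymes did not move together. Hk1, which starts the pathway, rose in tips, while Pgk1 and Pgam1, of the lower part, fell, and the other 4 genes did not pass the test. The test was limma over all 7453 probe sets, with an adjusted p (Benjamini-Hochberg) under 0.05 as the threshold. All differences below are log2 differences, tips minus lung, of signal plus an offset of 150.09, given with their standard error and n = 2 RNA samples per group. Of the 8 probe sets 3 were called, 1 higher and 2 lower, beside a background of 28.3% of all probe sets called, 14.5% higher and 13.7% lower. The share of enzymes called was therefore near that of all probe sets. Their median difference was 0.51, that of all probe sets 0.35. Only the call of Pgk1 held under all 21 alternative settings, while that of Pgam1 held under 13 and that of Hk1 under 9. In bulk tissue, fewer cells of a type and less RNA per cell cannot be told apart.

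**Figure D1:**
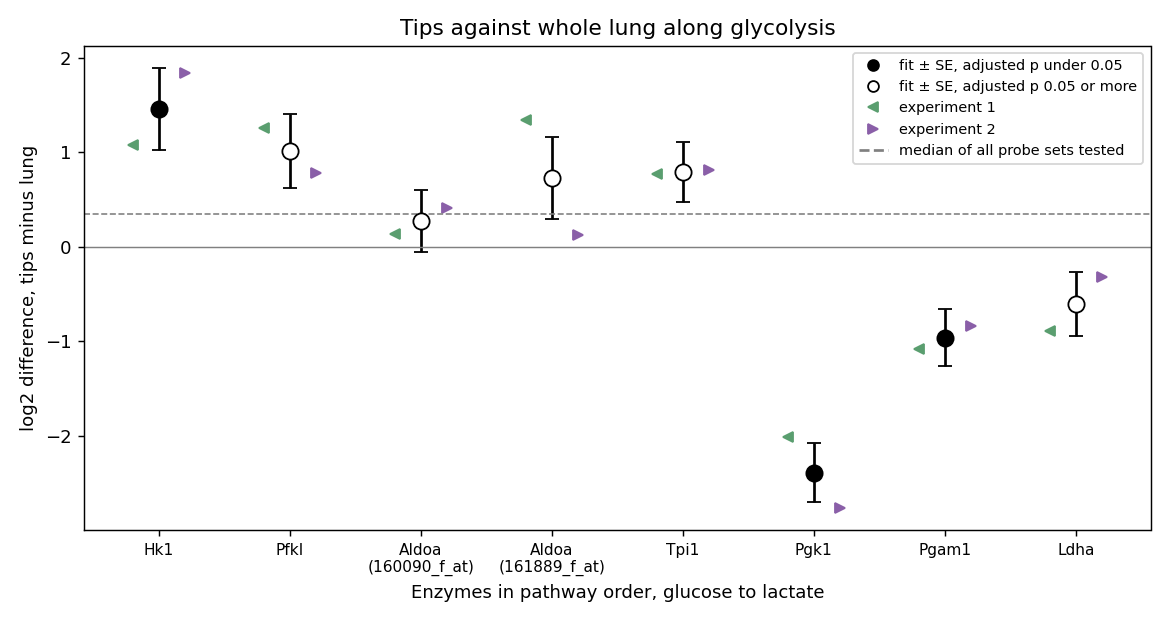
Log2 difference of tips minus lung (vertical axis) for the 8 probe sets in pathway order (horizontal axis), with the standard error as bars and each experiment as a triangle. Hk1 at 1.46 and Pgk1 at -2.39 mark the extremes, and the dashed line is the median of all probe sets tested, 0.35.

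Pgk1 encodes phosphoglycerate kinase, the first ATP-forming enzyme of the pathway. On the lung arrays its signal was 13361 and 14538 in experiment 1 and 18737 and 20471 in experiment 2. On the tip arrays it was 3204 and 3482 in experiment 1 and 3447 and 2197 in experiment 2. Every tip array lay below every lung array, and even the brightest tip array was far under the dimmest lung array.

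The mean Pgk1 signal fell from 16777 ± 3999 in lung to 3082 ± 368 in tips (SD, n = 2). The log2 difference was -2.39 ± 0.31, so that lung carried 5.23 times the tip level (limma adjusted p = 0.00168). It was -2.01 in experiment 1 and -2.76 in experiment 2. Of all 7453 probe sets, 229 had a more negative difference, which places Pgk1 at the percentile 3.07. The call held under all 21 alternative settings, with differences from -2.93 to -1.91 and adjusted p from 4.56e-06 to 0.0217.

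Pgam1 encodes phosphoglycerate mutase, which acts just after phosphoglycerate kinase. Its signal on the lung arrays was 4698 and 3426 in experiment 1 and 3472 and 5008 in experiment 2. On the tip arrays it was 1936 and 1713 in experiment 1 and 1919 and 2671 in experiment 2. The groups did not overlap here either, and the brightest tip array, of experiment 2, was the nearest to lung.

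Pgam1 fell by 0.96 ± 0.30 on the log2 scale (limma adjusted p = 0.0440), so that lung carried 1.94 times the tip level. The experiments gave -1.08 and -0.84. The call is near the threshold and was kept under 13 of 21 alternatives. It was lost without the lung RNA of experiment 1 (adjusted p = 0.232), without that of experiment 2 (0.240), without the tip RNA of experiment 1 (0.0678) and without array 2 of that tip RNA (0.0653). The difference was negative under all 21 alternatives, nearest to 0 at -0.81.

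Ldha encodes the A subunit of lactate dehydrogenase. Its lung signals were 3245 and 1861 in experiment 1 and 2033 and 2320 in experiment 2, and its tip signals 1933 and 798, and 1379 and 2134. The arrays of the groups overlapped, and 1 tip array lay under background, the level that nearly all controls for yeast or bacterial RNA stayed below on that array. The difference was -0.60 ± 0.33 (limma adjusted p = 0.192), with a 95% interval from -1.36 to 0.15. It passed under 1 alternative, median centring, at -1.15 (adjusted p = 0.0480).

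Hk1 encodes hexokinase 1, which phosphorylates glucose as it enters the cell. Its lung signals were 974 and 1686 in experiment 1 and 158 and 1255 in experiment 2. Its tip signals were 2737 and 3032 in experiment 1 and 2785 and 1751 in experiment 2. Every tip array was above every lung array, but the highest lung array was close to the lowest tip array, and array 1 of the lung RNA of experiment 2 stood far below its repeat and under its background.

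Hk1 rose by 1.46 ± 0.43, or 2.75 times (limma adjusted p = 0.0358), by 1.08 in experiment 1 and 1.85 in experiment 2. Without that single lung array the difference was 0.91 (adjusted p = 0.0787). The call was also lost without the lung RNA of experiment 1 (adjusted p = 0.0720), without that of experiment 2 (0.290) and without array 2 of the tip RNA of experiment 1 (0.0594). It was lost too under quantile normalization, median centring and cyclic loess, at 1.17, 0.92 and 1.13, and with values under 1243.9 set to that level, at 0.91 (adjusted p = 0.0541), and was kept under 9 of 21 alternatives.

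**Figure D2:**
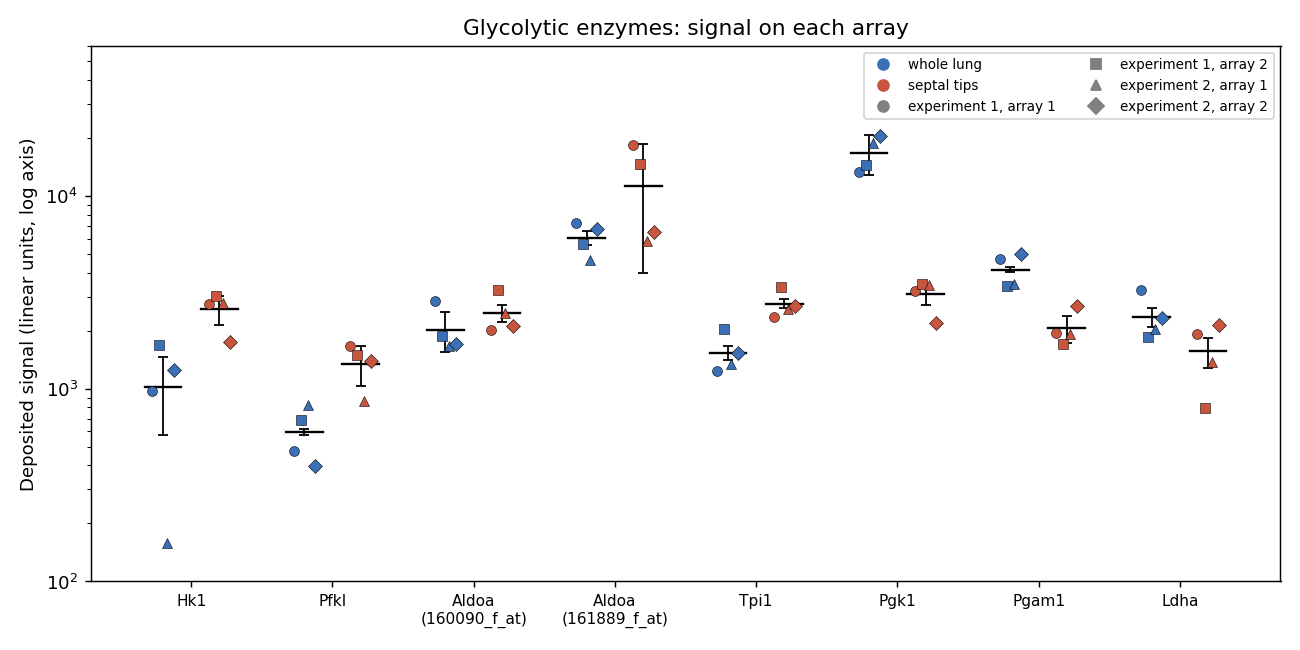
Deposited signal on a log axis (vertical) for each of the 8 probe sets (horizontal), with blue for lung and red for tips, a symbol for each experiment and array, a line for the mean and bars for the SD over the 2 RNA samples of a group. The 4 Pgk1 tip arrays lie between 2197 and 3482 and the 4 lung arrays between 13361 and 20471, while one Hk1 lung array lies at 158.

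Pfkl encodes the liver-type subunit of phosphofructokinase, which catalyses the committed step. Its lung signals were 473 and 686 in experiment 1 and 824 and 395 in experiment 2, and its tip signals 1657 and 1487, and 865 and 1393. Tip arrays were all above lung arrays, the nearest pair almost touching. The difference was 1.02 ± 0.40 (limma adjusted p = 0.0813), with a 95% interval from 0.12 to 1.91. It passed under 1 alternative only, without the tip RNA of experiment 2 (adjusted p = 0.0160). With values under 1243.9, the highest background of any array, set to that level, the Pfkl difference was 0.21 (adjusted p = 0.221). With 791.6, the second highest, as that level, it was 0.72 (0.0777).

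Tpi1 encodes triosephosphate isomerase, which interconverts the products of aldolase. Its lung signals were 1230 and 2036 in experiment 1 and 1350 and 1539 in experiment 2, and its tip signals 2362 and 3362, and 2606 and 2696. Again no tip array overlapped a lung array. The difference was 0.80 ± 0.31 (limma adjusted p = 0.0845), close to the same in both experiments at 0.78 and 0.82. It passed under 2 alternatives, with the 8 arrays entered singly (adjusted p = 0.0401) and with values under 1243.9 set to that level (0.0497). Of the 8 probe sets, 5 had groups of arrays that did not overlap, Hk1, Pfkl and Tpi1 higher and Pgk1 and Pgam1 lower. The same held for 42.0% of all probe sets tested, for 24.1% with tips higher and for 18.0% with tips lower.

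Aldoa encodes aldolase A, which splits fructose 1,6-bisphosphate, and was the only enzyme read by 2 probe sets. Both names end in f_at, which marks probes that related transcripts can share. At the dimmer Aldoa probe set the lung signals were 2838 and 1879 in experiment 1 and 1656 and 1710 in experiment 2, and the tip signals 2026 and 3240, and 2478 and 2113. These overlapped, and the difference was 0.28 ± 0.33 (limma adjusted p = 0.538), from -0.46 to 1.01 at 95%, with its sign turned to -0.26 by median centring.

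At the brighter Aldoa probe set the lung signals were 7265 and 5606 in experiment 1 and 4679 and 6724 in experiment 2. The tip signals were 18329 and 14674 in experiment 1 but 5803 and 6469 in experiment 2. Only the tips of experiment 1 stood above lung, and both of their arrays did. The difference was 0.73 ± 0.44 (limma adjusted p = 0.221), made up of 1.34 in experiment 1 and 0.12 in experiment 2. Without the tip RNA of experiment 2 it passed, at 1.43 (adjusted p = 0.00469), and without that of experiment 1 it was 0.03 (0.942).

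In pathway order, the differences of all 5 probe sets from Hk1 to Tpi1 were above 0, except that the dimmer Aldoa probe set turned below 0 under median centring, and those of all 3 from Pgk1 to Ldha were below 0. Of the 5 only Hk1 passed the test, of the 3 Pgk1 and Pgam1 did, and upper steps were not tested against lower ones. Of the 8 probe sets 62.5% were above 0, beside 62.1% of all probe sets. Other probe sets of lower steps stood above 0, most of them by less, with Pkm at 2.27, Eno2 at 1.19, Gapdhs at 0.66, Ldhb at 0.25, Eno3 at 0.22 and Pklr at 0.12. Bpgm stood below 0, at -1.44. The Gapdh controls stood at 1.91 for the 3′ end, 0.70 for the middle and 0.63 for the 5′ end. Of these only Pkm, Bpgm and the 3′ control passed the test. Relative to the median of all probe sets, Hk1 differed by 1.11, Pfkl by 0.67, Tpi1 by 0.45 and Aldoa by 0.38 and -0.07, while Pgk1, Pgam1 and Ldha differed by -2.74, -1.31 and -0.95. The median of all probe sets moved by -0.32 under quantile normalization, -0.54 under median centring and -0.30 under cyclic loess, against the main scaling. Under median centring the calls among the 8 were 0 higher and 3 lower, and among all probe sets 271 higher and 1512 lower in place of 1084 and 1022. Quantile normalization gave 614 and 1026 and cyclic loess 806 and 1156 over all probe sets, and each gave 0 higher and 2 lower among the enzymes.

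**Figure D3:**
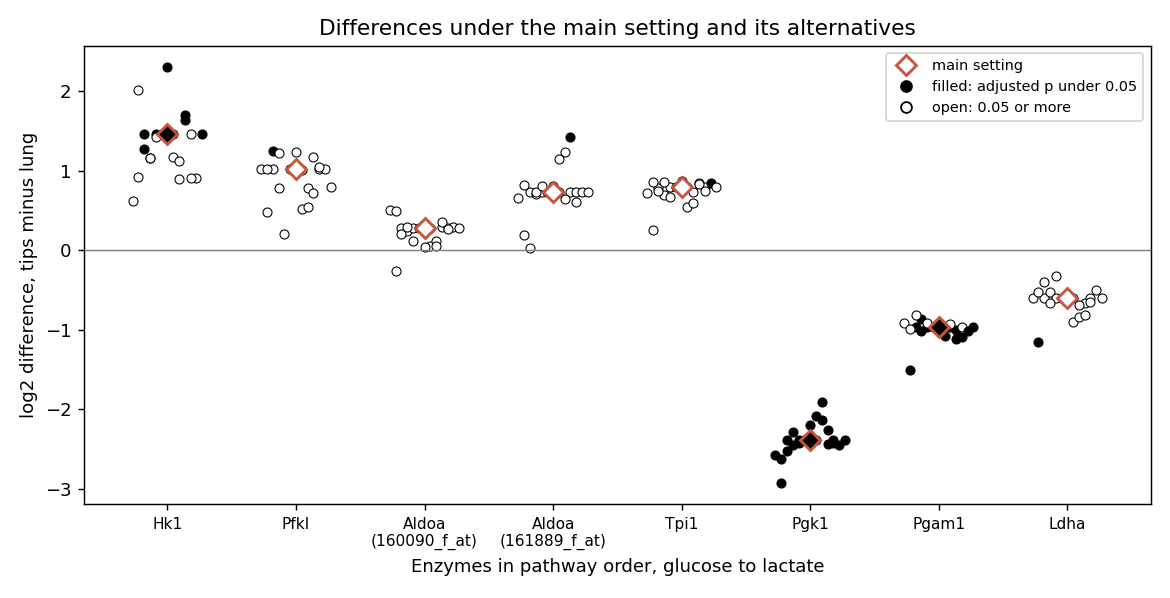
Log2 difference of tips minus lung (vertical axis) of each probe set (horizontal axis) under the main setting (diamond) and up to 21 alternatives (circles), filled where the adjusted p was under 0.05. Pgk1 is filled throughout, between -2.93 and -1.91, and Hk1 is filled under 9 of 21.

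Gapdh encodes the dehydrogenase that links the upper and the lower part of the pathway. Its control probe sets, which read the 3′ end, the middle and the 5′ end of the transcript, are no members and are given as signs of RNA quality. At the 3′ end, the lung arrays gave 2272 and 2272 in experiment 1 and 1765 and 2104 in experiment 2, and the tip arrays 7520 and 7510, and 8834 and 9326. All tip arrays were far above lung.

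In the middle of the transcript, lung lay between 2121 and 2539 and tips between 2765 and 5479. At the 5′ end, lung lay between 414 and 908 and tips between 691 and 1799, which overlapped. With these control probe sets kept in the limma fit, a choice made after seeing the data, the 3′ end rose by 1.91 ± 0.30 (adjusted p = 0.00315). The middle differed by 0.70 ± 0.31 (adjusted p = 0.117) and the 5′ end by 0.63 ± 0.45 (0.300). The difference between tips and lung had a different size at each end of the same transcript, though no test of one end against the other was made. In experiment 1 the 3′ and 5′ ends gave 1.66 and 1.28, and in experiment 2 they gave 2.15 and -0.03. At the 5′ end 1 tip array lay under background.

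The ratio of the 3′ to the 5′ signal of Gapdh was 1.95 to 5.49 for lung and 4.18 to 12.8 for tips. For beta-actin, a transcript of every cell, it was 38.8 to 104.0 and 23.0 to 139.0. This ratio overlapped between the groups for both transcripts. The ratio of the 3′ to the middle signal did not, and moved in opposite directions. For Gapdh it was 0.794 to 1.07 for lung and 1.70 to 2.72 for tips, and for beta-actin 16.5 to 24.8 and 9.23 to 12.4. The part that the length of the labelled fragments has in the differences of the 8 probe sets was not tested.

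**Figure D4:**
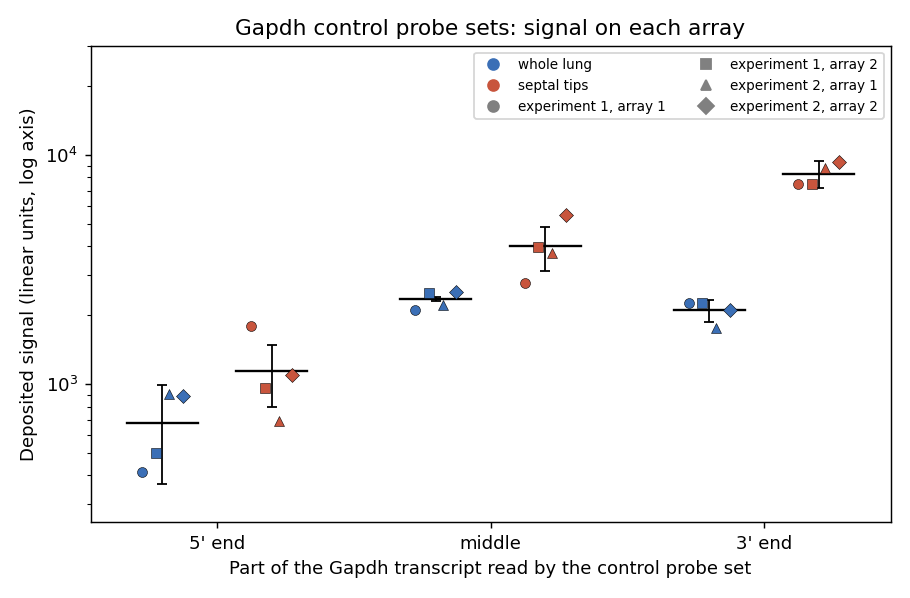
Deposited signal on a log axis (vertical) of the Gapdh control probe sets by part of the transcript (horizontal), with colours, symbols, lines and bars as for the enzymes. The groups overlap at the 5′ end and lie apart at the 3′ end, where lung reaches 2272 and tips begin at 7510.

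Other genes of glucose metabolism were read from 8 lists, each gene by its brightest probe set. Of 132 genes 82 were tested, and 10 rose and 9 fell. That is 23.2% called, beside 29.7% of all 5642 genes, 14.6% higher and 15.1% lower. The median difference of the 82 was 0.35 and that of all genes 0.31. The split moved with the scaling, to 5 higher and 9 lower under quantile normalization, 3 and 14 under median centring and 7 and 12 under cyclic loess.

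Of 13 other glycolysis genes tested, 2 rose and 1 fell, with a median of 0.66. Pkm, the gene of muscle-type pyruvate kinase, which makes pyruvate, rose from a signal of 671 ± 256 to 3790 ± 513, by 2.27 ± 0.37 (limma adjusted p = 0.00375). The Pkm probe set tested was under background on 1 lung array. A further probe set of Pkm lay under background on all 4 tip arrays and on 2 lung arrays, and was too dim to be tested. Without the lung RNA of experiment 1, the Pkm call was lost (adjusted p = 0.0566). Bpgm, which makes the 2,3-bisphosphoglycerate of red cells, fell by 1.44 ± 0.36 (adjusted p = 0.0194), and Minpp1, a phosphatase that can act on the same compound, rose by 1.42 ± 0.42 (0.0364). Minpp1 gave 0.48 (adjusted p = 0.240) with values under 1243.9 set to that level, and 1.05 (0.0823) with 791.6. The other isozymes did not pass, among them Hk2 at -0.18, Eno3 at 0.22, Ldhb at 0.25, Pfkm at 0.70, Pfkp at 1.17 and Eno2 at 1.19, and Aldoc had an adjusted p of 0.0547.

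Of 4 genes of regulation and transport tested, Slc2a8, a glucose transporter of inner membranes, rose by 1.23 ± 0.34 (limma adjusted p = 0.0291). Slc2a1, the gene of the glucose transporter of most cell surfaces, lay under background on all 8 arrays and was not tested. The regulator Pfkfb3, the lactate transporter partner Bsg and the fructose transporter Slc2a5 gave 0.61, 0.66 and 0.26.

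Of 7 genes of the pyruvate dehydrogenase complex and its kinases, 0 rose and 3 fell, and the median was -0.95. The complex carries pyruvate into the citric acid cycle, and its kinases switch it off. The kinase gene Pdk3 fell by 1.38 ± 0.37, the subunit gene Dlat by 1.16 ± 0.31 and the subunit gene Pdhb from a signal of 3747 ± 141 to 1727 ± 455 (limma adjusted p = 0.0246, 0.0253 and 0.0325). Genes of the complex and of a kinase were thus both among the 3. The Pdhb call was lost without array 2 of the tip RNA of experiment 1 (adjusted p = 0.118). A further, dimmer probe set of Dlat gave 0.20 ± 0.60 (adjusted p = 0.820). Pdk1, Pdha1, Pdk4 and Dld gave -0.88, -0.95, -0.59 and 0.27 without passing.

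The pentose phosphate pathway branches off at glucose 6-phosphate. Of 7 of its genes tested, Pgls, of the lactonase step, rose by 2.07 ± 0.46 and H6pd, its first enzyme in the endoplasmic reticulum, by 1.13 ± 0.30 (limma adjusted p = 0.0122 and 0.0229), and 0 fell. Of 9 genes of glycogen and sugar phosphates, the glycogen synthase gene Gys1 rose by 1.06 and the phosphorylase kinase gene Phkg2 by 1.73, and Pgm2, of the phosphoglucomutase family, fell by 2.64 ± 0.48 (adjusted p = 0.0403, 0.0439 and 0.00583). Pgm2 was under background on 3 of 4 tip arrays and Pgls and Phkg2 on 2 of 4 lung arrays. With values under 1243.9 set to that level, the Pgls difference was 0.88 (adjusted p = 0.0893) and that of Phkg2 0.23 (0.112), so neither passed. With 791.6 as that level Pgls passed, at 1.51 (0.0385), and Phkg2 did not, at 0.57 (0.0519). Of 6 genes of gluconeogenesis, limma called 0, and 1 had an unadjusted p under 0.05. They ranged from -0.07 to 1.18, the highest being Pck2 (unadjusted p = 0.0344, adjusted p = 0.0889), which passed with the experiment as a block (adjusted p = 0.0194).

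Of 22 genes of the citric acid cycle and the malate shuttle, 1 rose and 2 fell. Sucla2, a subunit of succinyl-CoA ligase, had a signal of 54777 ± 3541 in whole lung and of 4558 ± 1386 in tips, which gave -3.63 ± 0.34 on the log2 scale (limma adjusted p = 0.000941). A further Sucla2 probe set was far dimmer, at 3012 ± 191 in lung and 1064 ± 452 in tips, and gave -1.46 ± 0.38. The size of the Sucla2 difference thus depends on the probe set. Me1, the cytosolic malic enzyme, did not exceed background on any of the 4 tip arrays, and fell to a level at least 7.03-fold below lung (adjusted p = 0.00111). Sdhb, of succinate dehydrogenase, rose by 2.05 ± 0.39 (adjusted p = 0.00695), and gave 1.44 (0.0507) with values under 1243.9 set to that level. With 791.6 as that level Sdhb passed, at 2.01 (0.0291). The remaining 19 genes did not pass and lay between -1.01 and 1.08.

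Of 14 genes of the hypoxia-inducible factors and their known targets, 2 rose and 2 fell. Hif1a, the oxygen-regulated subunit itself, fell by 2.97 ± 0.41, its signal being 54823 ± 12490 in whole lung and 7281 ± 3704 in tips (limma adjusted p = 0.00197). A further probe set of Hif1a gave -3.03 ± 0.40. The names of both, and of the brighter probe sets of Pkm and Sucla2, also end in f_at. In lung, the brighter probe sets of Hif1a and Sucla2 were near the 3′ beta-actin control, at 53698 ± 17031. The part of related transcripts in these signals was not tested. Egln1, the prolyl hydroxylase that marks this factor for removal, fell by 1.96 ± 0.34 (adjusted p = 0.00487). Also in the list, Vegfa and Tfrc rose by 1.58 ± 0.39 and 0.90 ± 0.29 (adjusted p = 0.0188 and 0.0443). Vegfa was under background on 2 lung arrays and 1 tip array, and with values under 1243.9 set to that level it gave 0.32 (adjusted p = 0.0655). With 791.6 as that level Vegfa passed, at 0.92 (0.0338). Epas1, Arnt, Bnip3, Ddit4, Ndrg1 and P4ha1 did not pass, at 0.82, 0.49, -0.34, -0.31, -0.43 and 0.25. Members of the list stood on both sides of 0, as the enzymes did.

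**Figure D5:**
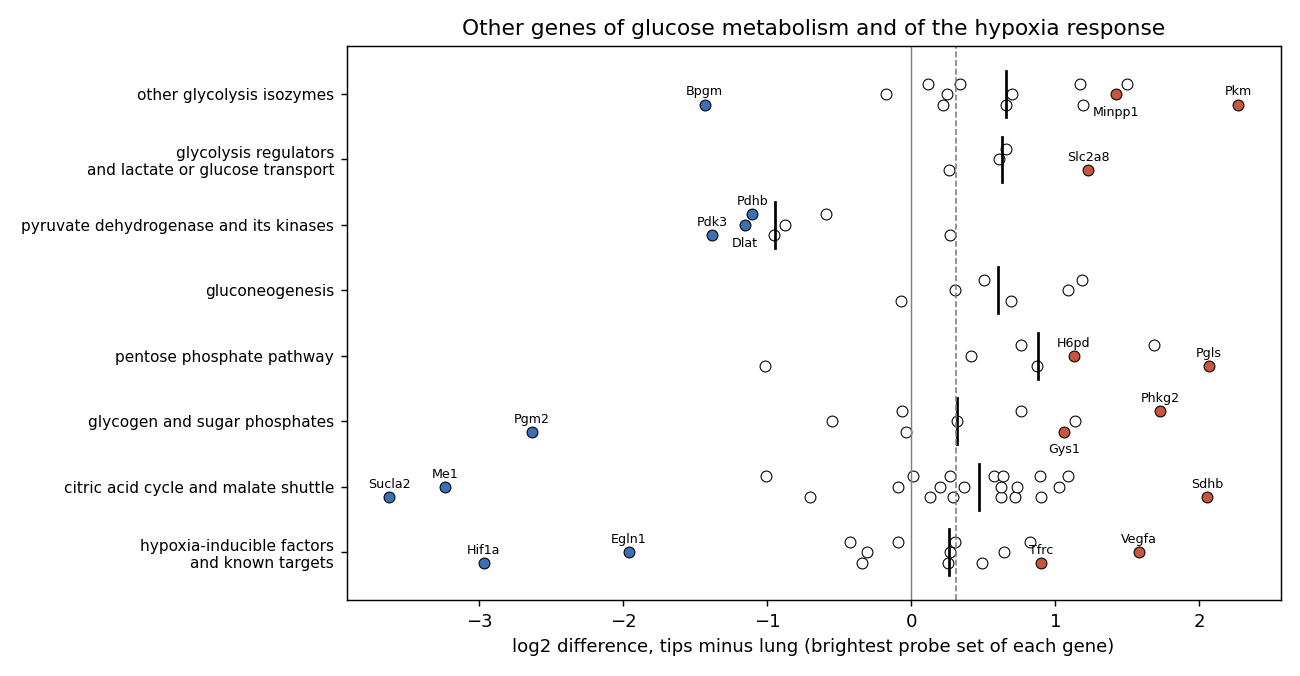
Log2 difference of tips minus lung (horizontal axis) for each tested gene of the 8 lists (vertical axis), red where it rose and blue where it fell at an adjusted p under 0.05, open otherwise, with a bar at the list's median and a dashed line at the median of all genes, 0.31. The called genes run from Sucla2 at -3.63 to Pkm at 2.27.

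Of these 19 called genes, 3 kept the call without the lung RNA of experiment 1 (Sucla2, Me1 and Hif1a) and 6 without that of experiment 2 (these with Pkm, Bpgm and Pgls). Without the tip RNA of experiment 1 or of experiment 2, 18 did, the exceptions being Minpp1 (adjusted p = 0.0642) and Tfrc (0.0656). Without array 1 of the lung RNA of experiment 2, 15 did, the calls of Slc2a8, Gys1, Phkg2 and Tfrc being lost. Without array 2 of the tip RNA of experiment 1, 15 did, those of Minpp1, Pdhb, Gys1 and Phkg2 being lost. Under all 5 scalings 11 did. The other 8 were Bpgm, Minpp1, Slc2a8, H6pd, Gys1, Phkg2, Vegfa and Tfrc.

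Brightness and marker genes differed between the groups. Median signal was 501 to 572 on lung arrays and 787 to 924 on tip arrays, and the background level 314 to 568 and 487 to 1244. Of all 5642 genes, 14.6% rose and 15.1% fell, and for 42.0% of all probe sets tested the arrays of the groups did not overlap. Of the 7 marker genes of myofibroblasts and smooth muscle, which septal tips are known to hold, 5 rose. But Acta2, 1 of the 7, gave 0.09 (limma adjusted p = 0.890). The 2 probe sets of Eln, of elastic fibres, gave 0.72 (0.356) and 1.04 (0.196). The summed signals of the 7 overlapped, at 18139 to 43167 for lung and 35610 to 51680 for tips. Those of Eln and Lox overlapped too, at 38505 to 80403 and 47679 to 153171. The summed signal of 6 endothelial markers was 80095 to 123108 for lung and 344885 to 358481 for tips, with 3 higher and 1 lower. That of 3 alveolar type II markers was 22522 to 38027 and 99022 to 114983, with 1 higher. Airway markers, of which 2 of 3 rose, summed to 14526 to 24479 in lung and 32987 to 83777 in tips. For 5 fibroblast markers, each by its brightest probe set, the sums were 50510 to 78525 and 103053 to 112828. Limma called 0 of these 5. Of 3 alveolar type I markers 1 fell, with sums of 70106 to 81356 and 33203 to 45194. Of 4 macrophage markers 1 fell, the sum being 41602 to 60693 in lung and 22748 to 32339 in tips, and of 4 markers of dividing cells 2 fell, with sums of 28647 to 45419 and 9169 to 16060. Of 3 red cell markers 1 rose, and their sums overlapped, at 15200 to 76244 in tips and 6550 to 29483 in lung. How often such sums lie apart for other sets of genes, and what they say of cell numbers, was not tested. The part of these cell types in the differences of the enzymes was not tested either.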

How the data were processed

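Per the submitters' processing notes, signals were made with MAS5. The deposited values are intensities on a linear scale, with nearly equal trimmed means, so the arrays were already scaled when deposited. There were 12488 probe sets, 66 of them controls. Symbols came from the platform annotation (10855 probe sets with 1, 396 with several, 1237 with none; 10839 updated by gene ID to GRCm38.p6).

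Each array was scaled to a trimmed mean of 1500.9 (2% left out at each end), 10% of it (150.09) was added, and log2 was taken. Probe sets under the 40th percentile of mean log2 were left out. The arrays of an RNA were averaged, and the difference was tested by limma 3.58.1, run in R 4.3.3 (intensity trend, 2 residual and 7.05 prior degrees of freedom). The number of RNA samples limits precision. Background was the 95th percentile of 19 bacterial and yeast controls on each array. Lists used the brightest probe set of a gene. For a group under background on all arrays, the bound took, on every array, background or signal, whichever was higher. All probe sets of the enzymes were named, with Pkm, Hif1a, Slc2a1, Vegfa and up to 6 called genes of each list, and other list genes were named after their values were seen. Members and lists were chosen with earlier results of these data known. The experiment number marks litters and processing shared by tips and lung, and so pairs the RNA samples, though their deviations correlated at only 0.0452. The procedure was tested on simulated data with 200 changed probe sets. It recovered 7.2% of log2 changes of 1, 75.7% of those of 2 and 99.7% of those of 3, and 1.81% of its calls were false. With 200 changed probe sets, a change of the size of 1 was thus mostly missed. In the data 2106 of 7453 probe sets were called, and recovery with that many changed probe sets was not tested. Alternatives covered scaling, offset, filter, floors at the highest (1243.9) and second highest (791.6) background of any array, trend, block, arrays and left-out samples. Of these, the lower floor, the removal of single arrays and the kept control probe sets were added after seeing the data. With a common floor limma at first gave 0 calls because probe sets at the floor had no spread, and those above it on fewer than 2 arrays were then left out, also a choice made after seeing the data.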

Additional observations from a re-analysis of the deposited data

Results flagged for a closer look

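Among 66 groups of 4 arrays looked at, 3 held an array set apart from the other 3 by more than Dixon's 95% limit, and chance gives about 1 in 20. None of the 3 concerned the 8 probe sets of the enzymes. The middle beta-actin control probe set was lowest on array 1 of the lung RNA of experiment 2, at 1915.8. Pdhb was highest among tip arrays on array 1 of experiment 1, at 2681. Sucla2 was highest among lung arrays on array 1 of experiment 1, at 62239. The 4 arrays of a group come from 2 RNA samples.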

How the results depend on the processing

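Of the 8 enzyme probe sets 3 were called. The count was 1 without a filter on dim probe sets, 1 without the intensity trend, 1 with array 2 of each RNA only and 1 without array 2 of the tip RNA of experiment 1, and Pgk1 was that one each time. With 1 RNA sample left out it ran from 1 to 5. For the other genes of glucose metabolism, 19 of 82, it then ran from 3 to 34, and for all probe sets, 2106, from 349 to 3324. With array 1 of each RNA only, all probe sets gave 1229. Under the other settings these counts stayed within 1.5 times. With the experiment as a replicate block, the calls were 3, 23 and 2452, with the same 3 enzymes. The block added Pck2, Suclg2, Taldo1 and Aldoc to the lists and changed no other call among the enzymes and the genes of the lists. The dimmer Aldoa probe set turned to -0.26 under median centring, and no other enzyme or called list gene changed sign. With 1 RNA sample left out, the remaining one of its group is assumed to vary like the other group. Signal over background limits Hk1, under background on 1 lung array, and Ldha, on 1 tip array. Pfkl was under background on no array, but its difference was 0.21 with values under 1243.9 set to that level, and 0.72 with 791.6.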
